A study of Mus musculus with 23 samples.

Results

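The data described here are messenger RNA profiles of flow sorted lung tumor cells taken 6 weeks after tumor initiation, from mice whose tumors were driven by BRAF V600E alone or by BRAF V600E together with PI3Kα H1047R. They are 7 of the 23 libraries of the series, namely the 3 BRAF V600E libraries and the 4 BRAF V600E/PI3Kα H1047R libraries labelled with 6 weeks. Of the 35455 genes in the table of normalized counts, the 17472 with a mean of at least 10 normalized counts over these 7 libraries were tested. The gene just inside this limit was St6gal2, with a mean of 10.0003, and the gene just outside it was Sh3gl3, with a mean of 9.99. The question put to the libraries was how PI3Kα H1047R alters the RNA of BRAF V600E tumor cells at this single time point.

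Mice of both groups carried one Braf CAT allele, which after the action of CRE recombinase makes BRAF V600E and a membrane-tethered tdTomato from the endogenous Braf locus. The second group also carried one copy of Pik3ca HR, a latent allele that makes PI3Kα H1047R from the endogenous Pik3ca locus. Tumors were started with Ad5-SpC-CRE, an adenovirus in which the Sftpc promoter limits CRE to alveolar type 2 (AT2) pneumocytes, and tdTomato+ cells were sorted from dissociated, perfused lungs. The mice were between 3 and 4 months old and of a mixed C57BL/6, 129 and FVB background, and the sources used here do not say which animals were littermates. Each library came from a separate animal, with 2 females and 1 male among the BRAF V600E mice and 2 females and 2 males among the BRAF V600E/PI3Kα H1047R mice. Below, values are listed for replicates 1 to 3 without PI3Kα H1047R and then for replicates 1 to 4 with it.

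AT2 pneumocytes make pulmonary surfactant, a mixture of lipids and surfactant proteins that keeps alveoli open, store it in lamellar bodies and can give rise to the flat alveolar type 1 (AT1) cells. BRAF V600E signals through MEK and ERK, whereas PI3Kα makes a membrane lipid that activates AKT, which in turn restrains the FOXO transcription factors and activates MTOR. PGC1α, encoded by Ppargc1a, is a transcriptional coactivator best known for its control of mitochondrial and lipid metabolism.

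The libraries summed to between 16433820 and 20287296 normalized counts, and between 20695 and 21594 genes were above 0 in each. Because the deposited values are normalized, the read depth behind them is unknown. Pearson's correlation of log2 values over the tested genes lay between 0.825 and 0.923 for the 21 pairs of libraries, as a description across genes. Y-linked genes (Ddx3y, Eif2s3y, Kdm5d and Uty) were high in the 3 libraries labelled male and low in the 4 labelled female (median difference between the genotypes 0.65, or 1.47 without replicate 1 with PI3Kα H1047R). At 12 weeks, which is used below for comparison only, Kdm5d went against the sex labels of both BRAF V600E/PI3Kα H1047R libraries, with 502 in the library labelled male and 4728 in the library labelled female.

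Replicate 1 with PI3Kα H1047R stood apart from the other 6 libraries. Over 20 endothelial markers its summed level was 290267 normalized counts, against 38024, 96426 and 149928 without PI3Kα H1047R and 73772, 72622 and 53631 in the other libraries with it. Its sum of 18 surfactant and lamellar body genes was 251776, against 509772 to 1181580 in the other 6 libraries. The sum of 20 fibroblast and collagen genes was 105902 in this library and between 23455 and 54652 in the others, whereas 40 cell cycle genes summed to 7306 against 12033 to 17854. None of the markers that define these cell types was at 0 in all 7 libraries. Medians of gene groups that turn sign or move by over 1.5 times without this library are therefore given both ways. As the library was singled out on these sums, shifts of the surfactant, endothelial, fibroblast and cell cycle medians without it follow from that choice. Replicate 1 without PI3Kα H1047R lay at the other end, with the lowest endothelial sum (38024) and the highest surfactant sum (1181580).

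**Figure D1:**
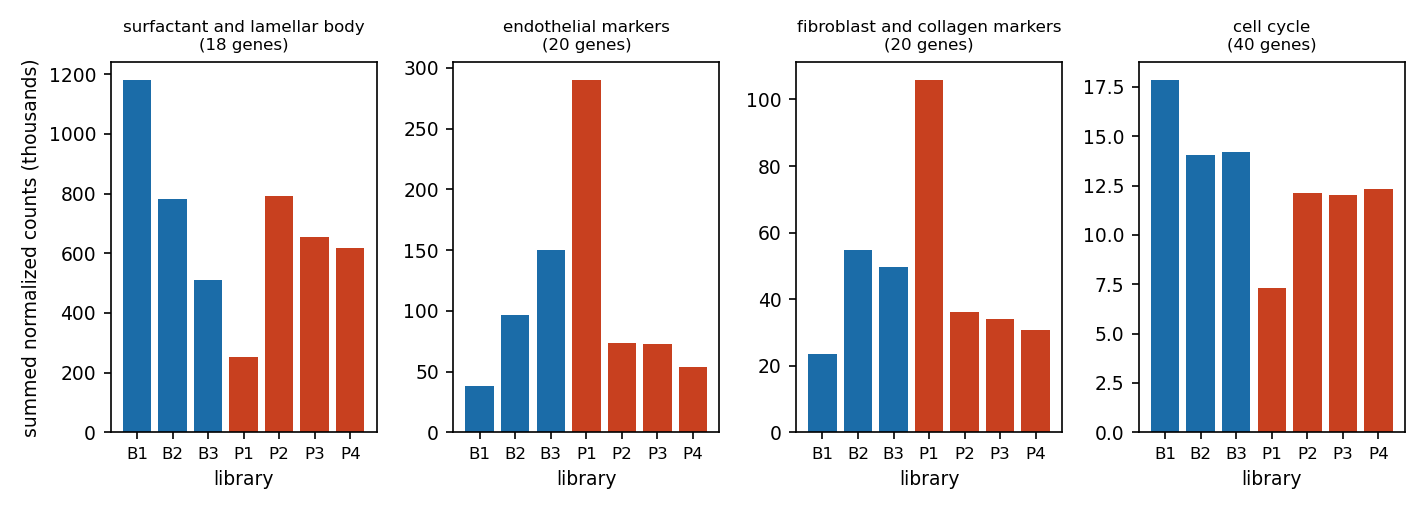
Summed normalized counts of 4 gene lists in each 6 week library. B1 to B3 (blue) are replicates 1 to 3 of BRAF V600E and P1 to P4 (red) replicates 1 to 4 of BRAF V600E/PI3Kα H1047R, and each bar is 1 library. P1 has the highest endothelial sum (290267) and fibroblast sum (105902) and the lowest surfactant sum (251776) and cell cycle sum (7306).

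Pik3ca itself was at 4568, 4519 and 4404 normalized counts without PI3Kα H1047R and at 4703, 4471, 3608 and 3415 with it. The groups overlapped, and the difference was -0.16 on the log2 scale (SE 0.21, exact permutation p = 0.371, two-sided). Since the activating allele sits at the same locus as the normal one, the total RNA of the gene does not check the genotype. Braf was at 2246, 3246 and 4332 against 3980.4, 3770.0, 3221 and 2922, a log2 difference of 0.13 (exact permutation p = 0.686). The table also has a row for tdTomato, chosen after its values were seen, with 9.98, 29.0 and 43.5 against 40.9, 84.9, 84.5 and 66.7, a difference of 1.46 (SE 0.59, exact permutation p = 0.0857) at an unadjusted p under 0.05 in the limma test described below. Its groups overlapped.

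All differences below are those of the mean log2(normalized count + 1) with PI3Kα H1047R minus that without, so a positive value means a higher level with PI3Kα H1047R, and folds of low genes are understated on this scale. Single genes were tested with limma, adjusted by the Benjamini-Hochberg method over all 17472 genes, and with an exact two-sided permutation test, whose smallest possible p is 0.0286 for 4 against 3 libraries. At an adjusted p under 0.05, 10 genes (0.0572%) changed, of which 9 rose (0.0515%) and 1 fell (0.00572%). At an unadjusted p under 0.05 there were 377 higher (2.16%) and 351 lower genes (2.01%), together 4.17%. In simulated data of 4 against 3 libraries with no gene changed, 925 of 17472 genes were at that p, against 728 here. The groups did not overlap for 449 higher (2.57%) and 454 lower genes (2.6%), together 5.17%. How many genes would have separate groups by chance was not tested. Separate groups of single genes are therefore given below as a description. The median difference of all tested genes was 0.00, 50.5% of them had a positive difference, and the median SE was 0.45. Without replicate 1 with PI3Kα H1047R, 6.34% of tested genes were at an unadjusted p under 0.05. That library was left out after its marker values were seen, so genes that pass only without it are given as a description.

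Mettl7a2, which encodes a putative methyltransferase of the METTL7 family, rose. Its normalized counts were 7.27, 20.1 and 12.7 without PI3Kα H1047R and 578, 327, 311 and 370.3 with it. Every library with PI3Kα H1047R was far above every library without it. On average 13.4 ± 6.45 (SD, n = 3) normalized counts stood against 397 ± 124 (SD, n = 4), which is a difference of 4.85 (SE 0.45, adjusted p = 0.00393), and the adjusted p stayed between 0.0109 and 0.0435 when any 1 library was left out. At 12 weeks the same gene was at 19.2 and 6.08 against 211 and 383.

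Mettl7a2 has near-identical neighbours, Mettl7a3 and Mettl7a1, on chromosome 15, so its reads are hard to assign. Of the stretches of 31 bases in its transcripts, 72.2% also occur in another gene. Mettl7a3 was at 53.8, 78.3 and 148 against 985, 389, 566 and 579, a difference of 2.79 (SE 0.44, adjusted p = 0.108), with groups that did not overlap. Mettl7a1 was at 6568, 9294 and 13284 against 17687, 7078, 8443 and 7800.4, a difference of 0.03. The sum of the family overlapped between the groups, with a log2 difference of 0.16, and the median difference of the 3 genes was 2.79.

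How little separates these genes is seen in a stretch of their coding sequence, shown because a 50 base read must cover one of its differing bases to be assigned to one gene. The coding regions are 732 bases long, differ at 44 positions among the 3 genes and are 99.0% identical between Mettl7a2 and Mettl7a3, 94.7% between Mettl7a1 and Mettl7a2, and 94.3% between Mettl7a1 and Mettl7a3. The windows hold coding bases 78 to 167, on the + strand of GRCm38 in the GENCODE vM21 annotation, within a coding exon at chr15:100304924-100305013 for Mettl7a1, chr15:100353287-100353376 for Mettl7a2 and chr15:100335007-100335096 for Mettl7a3. Capitals mark the 10 positions in the window at which the genes differ.
Mettl7a1: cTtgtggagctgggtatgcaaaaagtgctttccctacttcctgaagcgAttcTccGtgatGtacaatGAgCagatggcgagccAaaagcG
Mettl7a2: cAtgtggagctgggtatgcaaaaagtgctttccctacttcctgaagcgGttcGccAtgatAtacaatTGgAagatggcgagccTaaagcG
Mettl7a3: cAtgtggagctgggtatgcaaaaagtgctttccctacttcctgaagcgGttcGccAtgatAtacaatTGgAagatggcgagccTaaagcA

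In this window Mettl7a2 and Mettl7a3, the genes with separate groups, share every base but the last.

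On chromosome 2, 4 genes that rose lie close together, in a cluster of genes for KRAB zinc finger proteins, a large family of DNA-binding repressors. Gm14305 (chr2:176708328-176721813) was listed at 0 in all 3 libraries without PI3Kα H1047R and at 167, 126, 296 and 208 with it (adjusted p = 0.00134). Gm14308 (chr2:176613364-176636344) was likewise listed at 0 without it and at 109.7, 88.6, 264 and 144 with it (adjusted p = 0.00335). Gm14295 (chr2:176798612-176811223) was at 3.43, 0.437 and 5.56 against 916, 826, 1181 and 323, a difference of 7.73 (SE 0.64, adjusted p = 0.00238). The pseudogene Gm17258 (chr2:176257249-176258516) was listed at 0 against 51.4, 61.9, 148 and 43.3 (adjusted p = 0.0246), and it did not pass whenever 1 library was left out (adjusted p between 0.0689 and 0.222).

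Other members of the cluster were also higher. Between 1 Mb before the first and 1 Mb after the last of these 4 genes (chr2:175257249-177811223), 34 genes were tested, 17 were at an unadjusted p under 0.05, all of them higher, and 16 had groups that did not overlap. Their median difference was 1.35 over the 34 genes and 2.96 over the 17. The window was drawn around the 4 genes, which are among the 17 and the 16, and its members share sequence. The counts are thus not separate evidence. Among all tested genes, 2.16% were higher at that p and 2.57% were higher without overlap. Of the 17 genes, 5 were listed at 0 in all 3 libraries without PI3Kα H1047R. Zfp973 was at 33.5, 25.3 and 30.8 against 173, 181, 166 and 187 (difference 2.53, SE 0.35, adjusted p = 0.0579). Zfp966 was at 43.2, 42.8 and 19.9 against 358, 149.6, 239 and 394 (difference 2.96, SE 0.47, adjusted p = 0.112). Both had separate groups. Summed with the genes that share its sequence, Zfp973 still had separate groups (log2 difference 1.44), whereas Zfp966 did not (0.70). Of the 1254 windows of 1 Mb with at least 5 tested genes, the window starting at 176 Mb of chromosome 2 had the most genes at an unadjusted p under 0.05, 9 of 11, followed by its neighbour at 175 Mb with 8 of 16. The first of these windows holds the 4 genes past the adjusted threshold.

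These genes share most of their sequence with each other, 94.9% of the 31 base stretches of Gm14305 and 98.6% of those of Gm14308, so the counts of single members are uncertain. The sum of all 34 genes does not depend on how reads were divided among them, and was 3779.6, 3614 and 4999.9 without PI3Kα H1047R and 12607, 9628, 8520.1 and 8490.5 with it. The groups were separate for this sum. At 12 weeks it was 5322 and 3174 against 4452 and 5936, and at 2 weeks 8332 in the only BRAF V600E library against 7436 and 9043. The 17 genes had a median difference of 0.83 at 12 weeks, where 16 of 17 were higher, and of 0.08 at 2 weeks, where 9 of 17 were higher. They were picked for a low p at 6 weeks, so smaller medians at other weeks follow in part from that choice. Among the other 17 tested genes of the cluster, 12 were higher at 6 weeks and 7 at 12 weeks. The sums at 12 and 2 weeks overlapped between the genotypes.

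**Figure D2:**
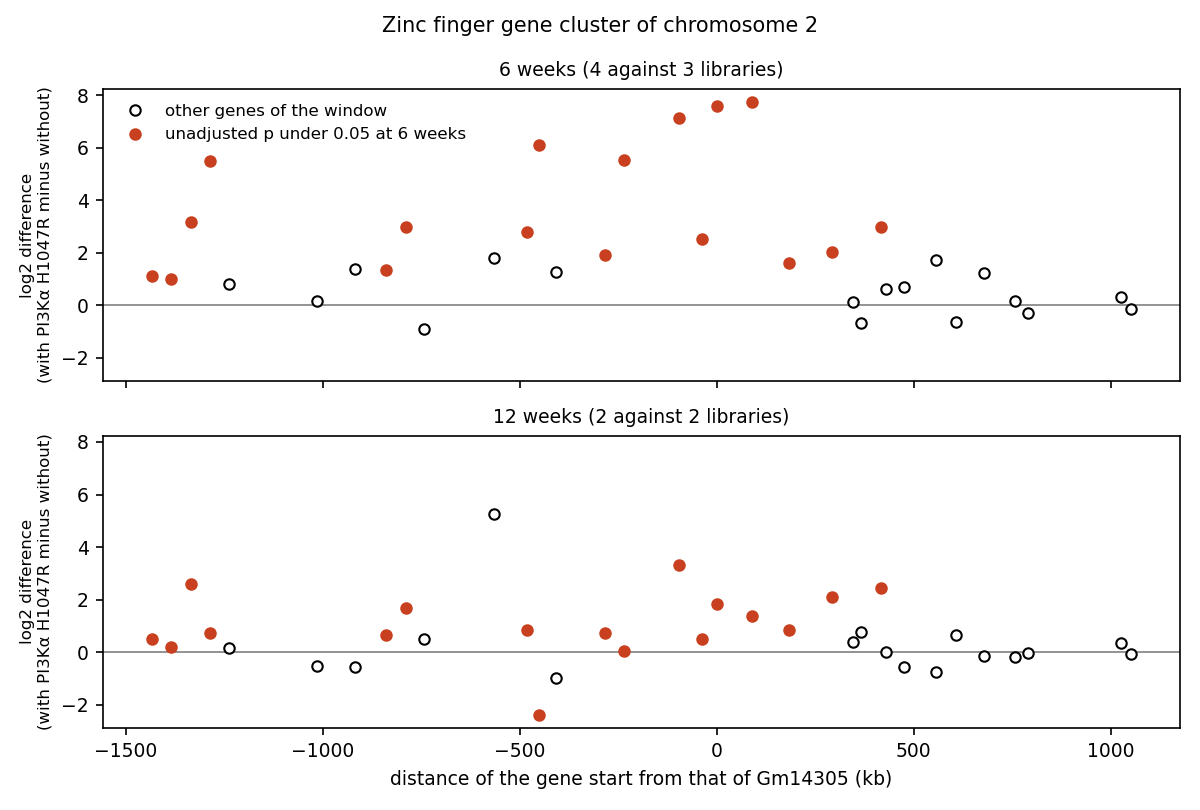
Difference in mean log2(normalized count + 1), with PI3Kα H1047R minus without, of the 34 tested genes of the zinc finger cluster of chromosome 2 at 6 weeks (top) and 12 weeks (bottom), against the distance in kb of each gene's start from that of Gm14305. Each point is 1 gene. The 17 filled points are at an unadjusted p under 0.05 at 6 weeks, all above 0 at 6 weeks with a median of 2.96, and had a median of 0.83 at 12 weeks.

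The other genes past the adjusted threshold also have copies. Gm10359 and Gm12671 are processed pseudogenes of Gapdh, the glycolytic enzyme glyceraldehyde-3-phosphate dehydrogenase, with identical transcripts and identical values. They were listed at 0 in all 3 libraries without PI3Kα H1047R and at 904, 1368, 998 and 837 with it (adjusted p = 8.38e-06). Gapdh itself was at 5034, 1803 and 3761 against 3413, 4933, 5086 and 4869, and the sum of the pseudogene with its 129 partners in the table overlapped between the groups (log2 difference -0.11). At 12 weeks the pseudogenes were at 0 and 0 against 0 and 1827, so 1 of 2 libraries with PI3Kα H1047R held them.

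Gm2436 and Gm2446 on chromosome 12 moved in opposite directions. Gm2436 was at 4.18, 2.14 and 6.30 against 227, 107, 107 and 107 (difference 4.73, SE 0.55), and Gm2446 at 180.0, 75.9 and 109 against 0.839, 0.957, 0 and 0 (difference -6.39, SE 0.76), both at an adjusted p of 0.0246. These genes share 99.6% and 99.9% of their 31 base stretches, and the sum over both and their copies overlapped (log2 difference 0.07). Gm2446 was the only gene of the 10 that fell.

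Rps2, a protein of the small ribosomal subunit, rose from 77.2, 76.4 and 67.5 to 414, 597, 382 and 336. The group means of 73.7 ± 5.36 (SD, n = 3) and 432 ± 115 (SD, n = 4) normalized counts differed by 2.50 on the log2 scale (SE 0.32, adjusted p = 0.0379). Leaving out any 1 library gave an adjusted p between 0.0785 and 0.192. Of its stretches 48.8% are shared, mostly with the pseudogene Rps2-ps10, and the sum with its 34 partners overlapped between the groups (log2 difference -0.48). In all, 9 of the 10 genes share over 50 percent of their stretches with other genes, and 6 passed in every fit without 1 library, namely Mettl7a2, Gm10359, Gm12671, Gm14295, Gm14305 and Gm14308.

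**Figure D3:**
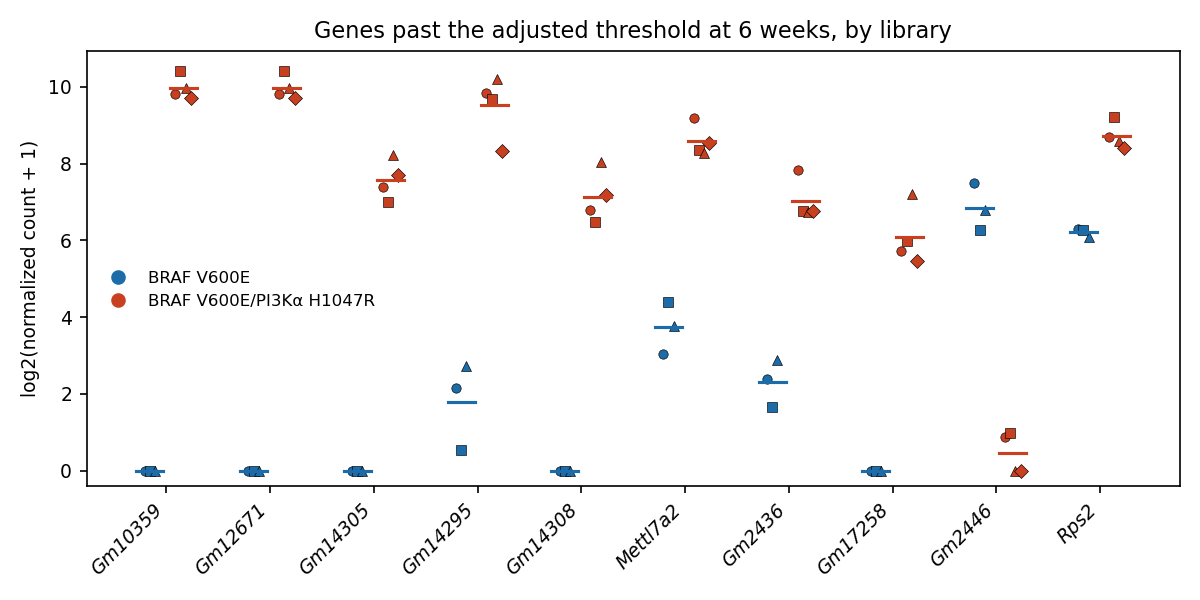
Level of the 10 genes with an adjusted p under 0.05, as log2(normalized count + 1), in each 6 week library. Blue points are the 3 BRAF V600E libraries, red points the 4 BRAF V600E/PI3Kα H1047R libraries, each marker shape stands for 1 replicate number (circle 1, square 2, triangle 3, diamond 4) and bars are group means. Gm10359, Gm12671, Gm14305, Gm14308 and Gm17258 lie at 0 in all blue points, and only Gm2446 is lower in red.

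No gene with little shared sequence passed the adjusted threshold, so the genes in the following paragraphs are given by their values. Ppargc1a had one of the lowest p-values among lower genes. It was at 1088, 649.9 and 1017 without PI3Kα H1047R and at 117, 282, 268 and 301 with it. The groups were well apart, with replicate 1 with PI3Kα H1047R the lowest of all. Mean levels of 919 ± 235 (SD, n = 3) and 242 ± 84.7 (SD, n = 4) normalized counts gave a log2 difference of -1.98 (SE 0.40, adjusted p = 0.44, exact permutation p = 0.0286). It lay between -2.21 and -1.66 when any 1 library was left out. At 12 weeks Ppargc1a was at 408 and 349.5 against 75.5 and 415, which overlapped, and at 2 weeks at 772 against 177 and 51.9.

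Of the 17 tested coactivators and regulators of mitochondrial genes, Ppargc1a alone was at an unadjusted p under 0.05, 6 had a positive difference, and the median was -0.26. The 75 respiratory chain genes had a median of -0.12, with 30 positive and only Atp5g2, a subunit of ATP synthase, past the unadjusted threshold (225, 213 and 145 against 89.7, 134, 53.2 and 139). Without replicate 1 with PI3Kα H1047R the medians were -0.21 and -0.08. Atp5g2 was then no longer past that threshold (difference -0.97 with that library and -0.93 without), whereas Ndufb8 of complex I was, on the lower side, and the nuclear receptors Esrra and Pparg were, on the higher side.

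Acss2, Fabp5, Pla2g1b and Aass, metabolic enzymes and carriers, were among the lower genes of lowest p with separate groups, and were picked for that and not as a tested group. Acss2, which makes acetyl-CoA from acetate, was at 673, 462 and 718 against 174, 305, 253 and 215 (difference -1.39, SE 0.32, adjusted p = 0.63). Fabp5, a fatty acid binding protein, was at 756, 498 and 513 against 251, 273, 139 and 161 (difference -1.54). Pla2g1b, a secreted phospholipase, was at 405, 363 and 368 against 92.3, 146, 126 and 166 (difference -1.54, SE 0.32, adjusted p = 0.51). Aass, the first enzyme of lysine breakdown, was at 432, 326 and 322 against 101, 155, 160.4 and 128 (difference -1.41). None of the 4 overlapped between the groups, and their differences at 12 weeks lay between -0.78 and -0.32. The 36 genes of SREBP-driven lipid and cholesterol synthesis had a median of 0.08 (0.03 without replicate 1 with PI3Kα H1047R), none past the unadjusted threshold and 22 positive. For 21 glycolytic genes the median was 0.10, and 0.23 without that library, with the enolase Eno1 higher (679, 479 and 340.1 against 642, 1141, 2081 and 2267) and the lactate dehydrogenase subunit Ldhb lower (405, 509 and 489 against 295, 266, 146 and 155) at an unadjusted p under 0.05. Eno1 overlapped between the groups through replicate 1 on both sides.

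The surfactant protein genes Sftpa1, Sftpb and Sftpc overlapped between the groups. Sftpa1, encoding surfactant protein A, was at 331227, 222232 and 138454 against 66008, 190143, 165271 and 122927 (difference -0.78, SE 0.40, exact permutation p = 0.229, and -0.47 without replicate 1 with PI3Kα H1047R). Sftpc was at 392699.7, 237836 and 164859 against 82500.1, 250127, 195707 and 221687 (difference -0.52, exact permutation p = 0.457, and -0.17 without that library), and Sftpb had a difference of -0.38 that turned to 0.19 without it. Of 17 tested surfactant and lamellar body genes, 13 had a negative difference, the median was -0.39, and Fabp5 alone was at an unadjusted p under 0.05. Without replicate 1 with PI3Kα H1047R the median was 0.02, with Scd1 past that threshold on the higher side, and without replicate 3 of the BRAF V600E group it was -0.73. Replicate 1 with PI3Kα H1047R had been singled out in part for its low surfactant sum, so the rise without it follows from that choice. In sorted but bulk cells, fewer cells of a type and less RNA per cell cannot be told apart.

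Among 19 other AT2 markers the median was -0.47, with 3 positive, and it was -0.43 without replicate 1 with PI3Kα H1047R and -0.79 without replicate 3 of the BRAF V600E group. Rnase4, a secreted ribonuclease, was at 11334, 11583 and 7153 against 5983, 7672, 5771 and 5739.6, and the airway protein Bpifa1 was at 0, 10.7 and 7.64 against 4141, 58.7, 8.40 and 32.3. The difference of Bpifa1 was 4.33, and 2.51 without the library at 4141, no longer past the unadjusted threshold. Lcn2, a carrier of lipophilic molecules, was at 7761, 5590.0 and 1519 against 1315, 3994, 1765 and 1573 (difference -1.05). The lysozyme genes Lyz1 and Lyz2 had differences of -1.89 and -0.18. Lyz1 was at 5668, 14167 and 24761 against 25486, 4093, 1124 and 1119, and without replicate 1 with PI3Kα H1047R its groups were separate with a difference of -2.86, at an unadjusted p under 0.05. With all 7 libraries, each of these 5 genes overlapped between the groups. Over the 18 genes the study names, a list chosen in part on these samples and so no independent evidence, 6 had a positive difference and the median was -0.45 (-0.29 without replicate 1 with PI3Kα H1047R), with Ppargc1a, Dlk1, Foxa2 and Bex2 at an unadjusted p under 0.05, all lower.

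At 2 weeks, where 1 library without PI3Kα H1047R was set against 2 with it and no test was made, the surfactant list had a median difference of -2.78 and the other AT2 markers of -1.71. Markers of other cell types were higher in the same libraries, with medians of 3.22 (endothelial), 1.67 (macrophage) and 1.47 (fibroblast), and their part in the AT2 values was not tested. At 12 weeks the medians were -0.15 and -0.33.

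Of 20 tested transcription factors of the lung epithelial lineages, 5 had a positive difference. Nkx2-1, the lung lineage regulator, was at 4825, 3603 and 3352 against 2308, 4199, 4337 and 5538 (difference 0.01), and Foxa1 had a difference of 0.05. Foxa2, a related forkhead factor, was at 287, 215 and 339.8 against 136, 115, 196 and 180.3, with separate groups (difference -0.84, SE 0.34, exact permutation p = 0.0286). Sox9, a factor of distal lung progenitors, was at 416, 748 and 143 against 64.3, 97.1, 74.6 and 80.5 (difference -2.16, SE 0.53, adjusted p = 0.688). The 4 libraries with PI3Kα H1047R held Sox9 within a narrow range below all 3 others. Foxa2 and Sox9 were the only ones of the list at an unadjusted p under 0.05, with Sox9 alone there without replicate 1 with PI3Kα H1047R, and the list median was -0.13, or -0.04 without that library and -0.43 without replicate 3 of the BRAF V600E group. Without replicate 1 with PI3Kα H1047R the difference of Foxa2 was -0.78.

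Dlk1, an imprinted gene for a NOTCH ligand of progenitor cells, was at 1626, 1840.0 and 324 against 79.6, 234, 21.6 and 13.2. The lowest library without PI3Kα H1047R was still above the highest with it, and the difference was -4.32 (SE 0.98, adjusted p = 0.63, exact permutation p = 0.0571). The entry AC165954.1 holds the same values. At 12 weeks Dlk1 was at 335 and 902 against 108 and 73.7, and at 2 weeks at 525 against 37.7 and 0.566, so it was separate at each time point. Mycn, a MYC family factor of developing lung, was at 203, 189 and 110.1 against 42.2, 20.7, 55.8 and 91.7 (difference -1.79). Igf2r, which removes the growth factor IGF2, was at 2606, 2429 and 2859.8 against 3421, 3228, 4655 and 4904 (difference 0.60). Of the 18 tested progenitor and imprinted growth genes these 3 passed the unadjusted threshold, and the median was -0.01, or 0.15 without replicate 1 with PI3Kα H1047R.

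Of the Bex genes, which encode small X-linked adaptor proteins, Bex1, Bex2 and Bex4 had separate groups. Bex4 was at 402, 531 and 318 against 147, 194, 205 and 83.7 (difference -1.45, SE 0.39, adjusted p = 0.826). Bex2 was at 219.6, 232 and 219 against 126, 114, 146 and 23.6 (difference -1.40), and Bex1 at 148, 60.4 and 48.5 against 18.5, 36.0, 9.09 and 0 (difference -3.05). All 3 were lower in every library with PI3Kα H1047R and were the only ones of 7 tested Bex and Tceal genes at an unadjusted p under 0.05, whereas Bex3 overlapped with a difference of -0.32. The list median was -0.40, and -0.27 without replicate 1 with PI3Kα H1047R. It lay between -0.82 without replicate 3 and -0.15 without replicate 1 of the BRAF V600E group. Bex4 shares 59.9% of its stretches with relatives, and the sum of Bex4 with these did not overlap either (log2 difference -1.56), whereas that of Bex2 did (-0.76). At 12 weeks Bex4 was at 173 and 255 against 201 and 333, a difference of 0.30.

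**Figure D4:**
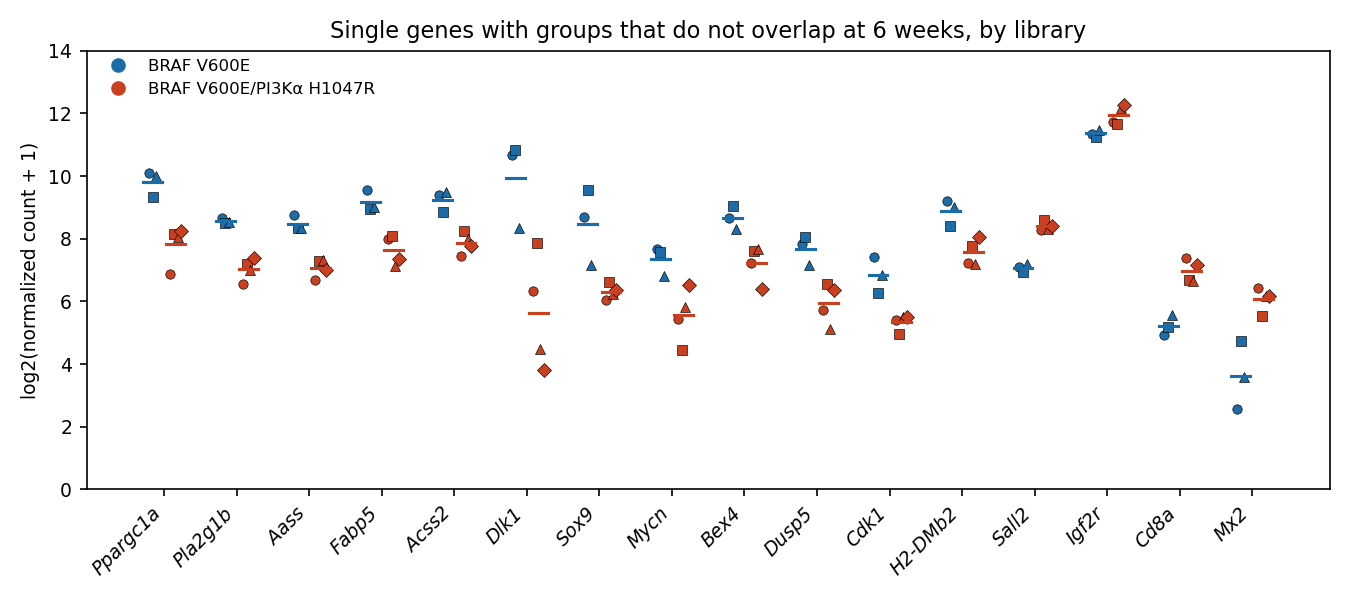
Level of 16 genes with groups that did not overlap at 6 weeks, as log2(normalized count + 1), in each library. Blue points are the 3 BRAF V600E and red points the 4 BRAF V600E/PI3Kα H1047R libraries, with 1 marker shape for each replicate number and bars at the group means. From Ppargc1a to H2-DMb2 all red points lie below the blue ones, and for Sall2, Igf2r, Cd8a and Mx2 they lie above. The genes were chosen for this separation, and none had an adjusted p under 0.05.

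None of the 29 core genes of the PI3K, AKT and MTOR pathway was at an unadjusted p under 0.05, with differences between -0.65 and 0.57 and a median of 0.03 (-0.09 without replicate 1 with PI3Kα H1047R). Of 25 FOXO factors and targets, only Cited2, a transcriptional coregulator, passed that threshold (659.8, 775 and 548 against 509, 303, 392 and 424, difference -0.71), and the median was 0.01 (-0.11 without that library). Among 20 genes of MAPK output and feedback the median was -0.16, or -0.05 without replicate 1 with PI3Kα H1047R, and it ranged from -0.54 without replicate 3 to 0.05 without replicate 1 of the BRAF V600E group. Dusp5, a nuclear phosphatase that acts on ERK, was at 225, 264 and 141 against 51.3, 93.3, 33.4 and 81.6 (difference -1.74, SE 0.46, adjusted p = 0.813) and was the only one of these past the unadjusted threshold. It did not overlap at 6 weeks but did at 12 weeks (53.0 and 236 against 172 and 148).

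The 21 ATF4 and amino acid synthesis genes and the 28 lysosome and TFEB target genes had medians of 0.14 and 0.11 (0.25 and 0.14 without replicate 1 with PI3Kα H1047R), with none past the unadjusted threshold. For 21 immediate early genes, which also respond to tissue dissociation, the median was 0.42, and 0.10 without replicate 1 with PI3Kα H1047R. Egr3 was the only one at an unadjusted p under 0.05 (4.73, 40.8 and 125 against 256, 263, 94.9 and 245), and its groups overlapped.

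Of 40 tested cell cycle genes, 9 had a positive difference and the median was -0.39, or -0.12 without replicate 1 with PI3Kα H1047R. Cdk1, the kinase of mitotic entry, was at 169.7, 76.1 and 113 against 41.3, 29.8, 44.7 and 44.6 (difference -1.49, SE 0.43, adjusted p = 0.939). Mki67, a marker of dividing cells, was at 2348, 2401 and 2450.0 against 494, 1659, 1623 and 1529 (difference -1.01, or -0.58 without replicate 1 with PI3Kα H1047R). Both were lower in every library with PI3Kα H1047R. Ccnb2, Tyms and Mcm3 also passed the unadjusted threshold on the lower side, with differences of -1.54, -0.97 and -0.67, whereas Kif20a, a mitotic kinesin, was higher (31.2, 66.9 and 19 against 243, 98.6, 67.7 and 120.3). At 12 weeks the list median was 0.09.

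Genes of MHC class II antigen presentation, which AT2 cells also express, had a median of -0.63 over 11 genes, and of -0.30 without replicate 1 with PI3Kα H1047R. With all 7 libraries, 3 of the 11 had a positive difference, up to 1.17, none of them at an unadjusted p under 0.05. H2-DMb2, a subunit of the peptide exchanger H2-DM, was at 583, 339.5 and 519.5 against 149, 218, 145 and 267 (difference -1.31, SE 0.35, adjusted p = 0.819), with separate groups. H2-DMb1 and H2-Aa had differences of -1.12 and -0.90 at an unadjusted p under 0.05, and neither remained there without replicate 1 with PI3Kα H1047R, where they were -0.71 and -0.55.

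Interferon response genes had a median of 0.02 over 41 genes, or -0.22 without replicate 1 with PI3Kα H1047R. Mx2, an antiviral GTPase, was at 4.97, 25.4 and 11 against 84.5, 45.1, 70.9 and 70.3 (difference 2.44). Tap1, a peptide transporter of class I presentation, was at 95.7, 184 and 160.2 against 244, 411, 348 and 241 (difference 1.10), whereas Oas2, which makes an activator of RNase L, was at 149, 62.5 and 217 against 36, 30.5, 9.52 and 16 (difference -2.58). The groups were separate for all 3. At 12 weeks the median of the list was 1.56, but its mean log2 level was 7.92 and 7.08 against 10.42 and 8.02, so that 1 of the 2 libraries with PI3Kα H1047R was far above the rest, as was Oas2 at 43.4 and 7.08 against 798 and 13.6.

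Some of the genes on chromosome 10 for ligands of NKG2D, an activating receptor of natural killer and T cells, had separate groups. Raet1d (chr10:22360552-22374139) was at 98.5, 236 and 95.7 against 0, 18.4, 2.05 and 0 (difference -5.57, SE 1.09, adjusted p = 0.375). Its neighbour H60b (chr10:22158586-22288849) was at 88.1, 337 and 69.2 against 18.6, 2.86, 22.3 and 2.55 (difference -3.85, SE 0.90, adjusted p = 0.652). Both were separate at 6 weeks. Another ligand gene, H60c (chr10:3256208-3267771), lies elsewhere on the chromosome and was at 208, 265 and 204 against 70.0, 11.7, 16.1 and 89.2 (difference -2.71, SE 0.71).

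Between Raet1d and 1 Mb to either side, 5 of 17 tested genes were at an unadjusted p under 0.05, all lower, against 2.01% of all tested genes. The window was chosen for Raet1d, which is 1 of the 5, and Gm1972 lies within the span of H60b. The 5 genes are thus not separate evidence. The 5 included Gm1972 (88.3, 166 and 53.8 against 0, 7.64, 11.1 and 9.26) and C920009B18Rik (367, 628 and 641 against 164, 206, 233 and 323). Raet1e, another NKG2D ligand gene of this locus, was at 88.7, 194 and 126 against 4.64, 225, 58.7 and 159, which overlapped (difference -1.14, and -0.01 without replicate 1 with PI3Kα H1047R). Raet1d shares 67.1% of its stretches with Raet1e, and the sum of both overlapped between the groups (187, 429 and 222 against 4.64, 244, 60.7 and 159). H60b and H60c have no such partner in the table. At 12 weeks H60b was at 330.1 and 92.9 against 101 and 37.0, and H60c at 303 and 84.4 against 51.7 and 19, so the second was separate there too. H60b, H60c, Raet1e, Gm1972 and C920009B18Rik were chosen after their values were seen.

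Further genes of low p had separate groups. On the higher side they included Sall2, a zinc finger transcription factor (135, 123 and 145 against 307, 383, 313 and 341, difference 1.32, SE 0.28, adjusted p = 0.523), and the zinc finger gene Zfp867 of chromosome 11 (23.1, 88.9 and 50.7 against 327, 211, 168 and 432). Clec4e, a myeloid receptor for damaged cells and fungi, was at 30.1, 13.1 and 20.8 against 93.9, 80.1, 68.2 and 87.4. Rgs22, a regulator of G protein signaling, was at 8.94, 23.4 and 10.2 against 72.3, 58.6, 134 and 86.1. Nxpe4 had a difference of 3.78, with 894 in replicate 1 with PI3Kα H1047R and 141 to 233 in the others with it, and Dynlt1, a dynein light chain, one of 5.26 (0, 0 and 6.35 against 61.6, 49.4, 65.8 and 145). Sall2 at 12 weeks was at 399 and 199 against 115 and 486 and overlapped.

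On the lower side, Fcgbp, a mucus protein, was at 76.7, 124 and 89.4 against 24.3, 24.4, 21.2 and 26.6 (difference -1.93). Zfp184 was at 209, 199 and 103 against 26.4, 45.4, 45.6 and 37.5 (difference -2.07), and Pianp, a ligand of an inhibitory receptor, at 105, 226 and 21.2 against 0, 0, 0 and 9.59. The clone-named AC147512.3 was at 243, 304 and 133 against 4.22, 18.1, 42.4 and 30.3 (difference -3.49). Fcgbp had the opposite direction at 12 weeks, at 25.6 and 99.4 against 220.1 and 62.5.

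Markers of the other cell types of the lung were examined for what the sort might hold. The 20 AT1 markers had a median of 0.18, with 17 positive and none at an unadjusted p under 0.05, and of -0.04 without replicate 1 with PI3Kα H1047R or -0.08 without replicate 1 of the BRAF V600E group. Aqp5, an AT1 water channel, was at 1296, 1048 and 654 against 743, 2604, 2419 and 2155 (difference 0.89, exact permutation p = 0.143), which overlapped. Without replicate 1 with PI3Kα H1047R its difference was 1.31, at an unadjusted p under 0.05 and with separate groups. In that fit 6.34% of tested genes were at that p, and chance separates smaller groups more often. Hopx and Pdpn had differences of 0.04 and 0.50. The 16 genes of an alveolar transitional state had a median of -0.02, and of 0.34 without replicate 1 with PI3Kα H1047R, where Krt8 and Cdkn1a were at an unadjusted p under 0.05 on the higher side. Club, ciliated and gut lists had medians of -0.08, 0.20 and -0.40 over 12, 12 and 9 genes, and of 0.13, 0.02 and 0.55 without replicate 1 with PI3Kα H1047R. Cyp2f2, a club cell cytochrome, and Ctse, a gastric protease (633, 404 and 614 against 62.3, 290.1, 164 and 211), were the only ones among these at an unadjusted p under 0.05, both lower, and Cyp2f2 was no longer past it without that library (difference -0.76 with it and -0.69 without).

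Endothelial markers had a median of 0.25 with 19 of 20 positive, fibroblast and collagen markers one of 0.27 with 17 of 20 positive, and none of either list passed the unadjusted threshold. Without replicate 1 with PI3Kα H1047R these medians were -0.24 and -0.05, and without replicate 1 of the BRAF V600E group the endothelial median was -0.26. Replicate 1 with PI3Kα H1047R had been singled out for its high sums of both lists, so the falls without it follow from that choice. Macrophage and myeloid markers had a median of 0.52, with 16 of 18 positive, and of 0.81 without replicate 1 with PI3Kα H1047R or 0.25 without replicate 1 of the BRAF V600E group. Itgax was at 15.6, 123 and 99.0 against 127, 245, 514 and 289, and Fabp4 at 0.607, 19.8 and 22.5 against 102, 25.7, 74.5 and 38.4, both with separate groups. Neutrophil, lymphocyte and erythroid lists had medians of 0.17, 0.06 and -0.75 over 9, 20 and 9 genes, and of 0.34, -0.24 and -0.83 without replicate 1 with PI3Kα H1047R.

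Cd8a, a coreceptor of cytotoxic T cells, was at 29.5, 35.6 and 45.9 against 164, 102, 99.9 and 141 (difference 1.74, SE 0.40, adjusted p = 0.63), the B cell gene Cd79b had a difference of -1.44, and the hemoglobin gene Hba-a1 was at 93.2, 115 and 198 against 75.6, 41.5, 32.5 and 43.9. Cd8a and Cd79b were the only ones of the 20 lymphocyte genes at an unadjusted p under 0.05, with 11 positive, and the other T cell genes of the list, none past that threshold, had differences of 2.21 (Cd8b1), 1.73 (Cd2), 1.61 (Trbc2), 0.37 (Cd3g), 0.16 (Trac), 0.15 (Cd3e), 0.07 (Cd4) and -0.47 (Cd3d). Cd8a was separate at 6 weeks, and at 12 weeks was at 53.2 and 40.9 against 53.5 and 44.4. Among 29 genes of mesenchymal transition the median was 0.10, or -0.03 without replicate 1 with PI3Kα H1047R, and Cdh2, N-cadherin, was the only one past the unadjusted threshold (9.11, 17.6 and 45.6 against 99.0, 94.2, 87.9 and 67.7). The part of such cells in the differences given here was not tested.

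**Figure D5:**
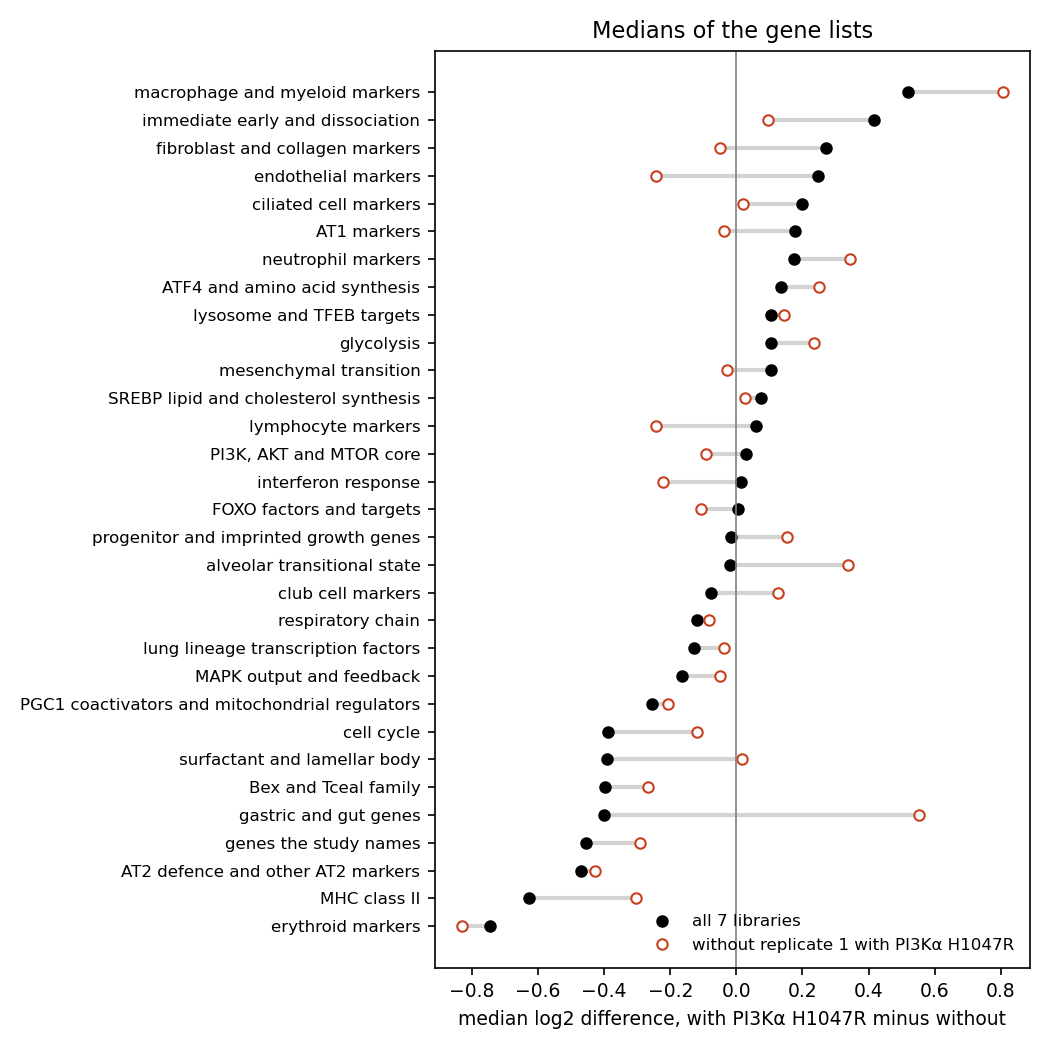
Median difference in log2(normalized count + 1), with PI3Kα H1047R minus without, over the tested genes of 31 gene lists at 6 weeks. Filled points use all 7 libraries and open points leave out replicate 1 with PI3Kα H1047R. The surfactant median moves from -0.39 to 0.02 and the endothelial median from 0.25 to -0.24, whereas that of the PGC1 coactivators moves only from -0.26 to -0.21. The library left out had been singled out in part on its surfactant and endothelial sums.

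The libraries at 12 weeks, 2 of each genotype and started with a lower viral titer, allowed the same difference to be compared between weeks. Of the 377 genes that were higher at an unadjusted p under 0.05 at 6 weeks, 61.3% were also higher at 12 weeks, and of the 351 lower genes 65.0% were also lower, against 50.3% higher and 49.5% lower of all tested genes. No gene passed an adjusted p under 0.05 in limma's test of whether the difference at 6 weeks departs from that at 12 weeks, and 499 of 17510 genes (2.85%) were at an unadjusted p under 0.05, 1.32% with a higher and 1.52% with a lower difference at 6 weeks than at 12. In the fit with all 14 libraries of 2, 6 and 12 weeks, 2 genes (0.0114%), both lower, had an adjusted p under 0.05 at 12 weeks, and 3.63% an unadjusted one, 2.1% higher and 1.53% lower.

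Genes that kept all 6 BRAF V600E libraries apart from all 8 BRAF V600E/PI3Kα H1047R libraries of the 3 time points numbered 38 of the 17472 tested, with 15 higher and 23 lower. Besides Mettl7a2, Mettl7a3, Dlk1, Raet1d, Bex1 and Bex2, they included Abcc5, an exporter of cyclic nucleotides (1346, 795 and 1027 against 1612, 2158, 1980.3 and 3214 at 6 weeks), and Vapb, an anchor protein of the endoplasmic reticulum (422, 589 and 250.2 against 1204, 827, 951 and 1177). Pttg1, securin, was at 50.6, 64.1 and 72.5 against 961, 179, 248 and 81.5. On the lower side, Zmat4 was at 3289, 1426 and 842 against 93.8, 351, 709 and 362, and Adcyap1, a neuropeptide, at 393, 173 and 162 against 0.831, 17.1, 59.5 and 81.1. Foxa3, a forkhead factor, was at 69.2, 37.1 and 84.7 against 2.52, 22, 27.2 and 5.04. These genes were picked because they separate the libraries, so their values are a description. How many genes would separate them by chance was not tested. Neither Ppargc1a nor any of the 4 zinc finger cluster genes that rose at 6 weeks was among the 38.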

How the data were processed

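RNA of tdTomato+ tumor cells was sequenced as 50 base single-end reads by the authors, from RNeasy micro RNA with an integrity number above 6 and Nugen Ovation Ultralow V2 libraries, and quantified with Salmon. The signal values used here are the normalized counts deposited by the authors, made with DESeq2 for 14 libraries of 2, 6 and 12 weeks together. The submitters' processing notes name GRCm38, FastQC, Salmon and DESeq2 without versions. Strand handling is not given in the sources used here. The authors' comparison table, which holds fold changes and p-values, was not used. Between 25.9% and 41.4% of values under 20 were whole multiples, within 0.01, of a single step value of their library at 6 weeks. Most low values were not, so reads could not be recovered, no count test was run and depth is unknown.

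Libraries were grouped by their labels. Genes with a mean of at least 10 over the 7 libraries were compared as log2(value + 1) with limma 3.58.1 in R 4.3.3 (trend, moderated variance, two-sided, Benjamini-Hochberg), and single genes with an exact permutation test over 35 splits (Python 3.11.15, scipy 1.17.1). The difference between 6 and 12 weeks was tested as an interaction in a fit of the 14 libraries. On simulated data with 17472 genes and 4 against 3 libraries, of 200 genes changed by 2 on the log2 scale 29% were recovered with 0 false calls, of 200 changed by 4, 81.5% with 9 false calls, and of 200 changed by 1 none. With no gene changed, 0 were called.

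Members and gene lists (33 lists, 710 genes) were chosen with earlier results of these data known. Genes are named if they had an adjusted p under 0.05, if they were among the 12 higher and 12 lower genes of lowest unadjusted p under 0.05 with separate groups, a mean of at least 40 and a symbol that is no gene model, clone, pseudogene or miRNA, if the study names them, if they are Pik3ca, Braf or Y-linked, or if they are among the 4 of lowest p in a list. Others are said to be chosen after their values were seen, as were Gapdh, Mki67, Mcm3, Ndufb8, Esrra, Krt8, Bex3, Cd2, Cd3d, Cd3e, Cd3g, Cd4, Trac, Vapb, Abcc5, Pttg1, Zmat4, Adcyap1 and Foxa3. Positions and shared stretches of 31 bases come from GENCODE vM21 on GRCm38, in which 34160 symbols of the table and 17091 of the tested genes were found. Alternatives were another pseudocount, filters, scaling, covariates, all 14 libraries and leaving out each library.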

Additional observations from a re-analysis of the deposited data

Results flagged for a closer look

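Among 48 named genes, 6 had 1 library with PI3Kα H1047R far from the other 3 with it. This was measured on log2(normalized count + 1) as the gap to the nearest library over the whole range of the group. Chance alone does this in about 1 in 20 groups of normally distributed values. The levels below are normalized counts, and the ratios are those of the log2 values. Replicate 1 with PI3Kα H1047R was the distant library for 4 of them, and it is also the library with the highest endothelial sum. Ppargc1a was at 117 there and at 268 to 301 in the others (ratio 0.876), Sftpb at 10126 against 42887 to 53452 (0.868), and Aqp5 at 743 against 2155 to 2604 (0.849). Gm2436 was at 227 there and at 107 in the others (0.993). Replicate 4 was distant for Bex2, at 23.6 against 114 to 146 (0.864), and for Pianp, at 9.59 where the others were at 0 (ratio 1). The part of the marker sums of replicate 1 in the values of its 4 genes was not tested.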

How the results depend on the processing

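Against 10 genes with an adjusted p under 0.05, the fit of all 14 libraries gave 4, of which 2 were among the 10 (Gm14305 and Mettl7a2) and 2 were not (Gm47021 and Mettl7a3). There were 6 with sex as a factor and 6 to 10 when 1 library was left out, with 6 without BRAF V600E replicate 2 or 3 or BRAF V600E/PI3Kα H1047R replicate 4. A pseudocount of 4 gave 15, a mean of at least 40 gave 7, no filter and robust variance 9 each, quantile scaling 11, and counting genes with identical values once, chosen after seeing the data, 9. The test of 6 against 12 weeks called 0 genes, and 0 to 1 when 1 library was left out (1 without BRAF V600E/PI3Kα H1047R replicate 1 of 6 weeks or BRAF V600E replicate 2 of 12 weeks). Genes at an unadjusted p under 0.05 numbered 561 to 1106 when 1 library was left out, the highest without BRAF V600E/PI3Kα H1047R replicate 1 (507 higher, 2.9%, and 599 lower, 3.43%), and 1104 with no filter.

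With the replicate number as a block 2 genes were called (Gm10359 and Gm12671) and 513 were at an unadjusted p under 0.05. The numbers were not shown to pair the animals, as deviations of same-numbered libraries correlated at -0.279, -0.024 and -0.023. Small uncalled differences turned their sign: under the block, Nkx2-1 to -0.16, Foxa1 to -0.24 and Lyz2 to 0.039, and with sex as a factor the log2 difference of Nkx2-1 to -0.0335. Leaving out 1 library moved Nkx2-1 to between -0.16 and 0.26, Foxa1 to between -0.72 and 0.61, Lyz2 to between -0.35 and 0.039, Hopx to between -0.34 and 0.30, Braf to between -0.12 and 0.35 and Sftpb to between -0.72 and 0.19. Over the alternatives the list median ranged from -0.54 to 0.05 for MAPK output, -0.32 to 0.02 for PGC1 coactivators, -0.20 to 0.03 for the respiratory chain and -0.77 to 0.53 for lymphocyte markers. It also ranged from -0.26 to 0.70 for endothelial, -0.07 to 0.54 for fibroblast, -0.15 to 0.58 for neutrophil, -0.93 to -0.46 for erythroid, -0.08 to 0.38 for AT1 and -0.69 to 0.55 for gut markers, -0.22 to 0.34 for the transitional state, -0.87 to -0.30 for MHC class II, -0.51 to -0.12 for the cell cycle and -0.72 to -0.26 for the genes the study names. The cause of these changes was not tested. Over 48 named genes, 649 of the differences under an alternative kept their direction and side of the threshold, 53 kept only the direction, 1 passed the threshold anew and 17 reversed. In simulated data of 4 against 3 libraries no change of 1 on the log2 scale was recovered. A gene that did not pass the adjusted threshold may therefore still have changed by that amount.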
